A study of Mus musculus with 32 samples.

Results

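RNA sequencing of the tibialis anterior (TA), a limb muscle of the mouse, was used to follow 10 circadian clock genes in wild-type (WT) and *Mtm1* knockout (KO) mice. The genes were chosen by name and comprised *Arntl*, *Clock*, *Npas2*, *Per2*, *Per3*, *Cry1*, *Cry2*, *Nr1d1*, *Nr1d2* and *Dbp*. All 10 of 10 were found among the 54838 genes of the expression table, and all 10 passed the filter on low counts in every comparison. *Mtm1* encodes myotubularin, a lipid phosphatase whose loss causes X-linked myotubular myopathy. The KO allele is a germline deletion in exon 4, made in 129S2PAS mice and rederived onto C57BL6J. The labels give the C57BL6/J background to both genotypes. Each genotype was sampled at 4 ages, postnatal day 1 (P1), P14, P21 and P35, with n=4 libraries per group and 32 libraries in all. The deletion is carried by every cell of the KO mouse, and whole muscle was sequenced, so that fewer cells of a type and less RNA per cell cannot be told apart. The mice were kept in a light-dark cycle, but the hour at which each muscle was taken is not given in the sources used here. Hour of collection and genotype, age or library therefore cannot be told apart in these data.

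The circadian clock is a feedback loop of transcription that runs in nearly every cell, including muscle fibers. ARNTL (also called BMAL1) pairs with CLOCK, or with its relative NPAS2, and switches on genes with E-box sequences, among them the *Per*, *Cry*, *Nr1d1*, *Nr1d2* and *Dbp* genes. PER and CRY proteins then repress that pair, whereas NR1D1 and NR1D2 (REV-ERB alpha and beta) repress *Arntl* through ROR elements. DBP is an output factor that acts at D-boxes, for example in *Per* genes. In adult rodent tissues *Arntl* and *Npas2* transcripts peak at a time of day roughly opposite to *Dbp* and *Per3* transcripts.

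The library totals ranged from 49321035 to 85631408 counts, and the lowest count of any clock gene in any library was 11. Levels are given as CPM, counts per 1000000 counts of a library after TMM scaling (a scaling by the bulk of genes), on 1 scale across all 32 libraries. *Mtm1* was between 5.26 and 24.9 CPM in WT and between 2.32 and 4.51 CPM in KO libraries, without overlap at any age. Its log2 fold change (log2FC, KO/WT) was −0.98 at P1 (adjusted p = 0.0668), −2.34 at P14, −2.71 at P21 and −2.56 at P35 (adjusted p of at most 8.13e-06 at the later 3 ages, edgeR quasi-likelihood test). The 6 skeletal muscle fiber markers (*Ckm*, *Acta1*, *Ttn*, *Tnnt3*, *Pvalb*, *Mylpf*) were detected in every group, with sums of 18891 to 124727 CPM. The 6 keratinocyte markers summed to between 1507 and 5817 CPM at P1 in both genotypes and to between 2.51 and 6.30 CPM at the later ages, where 2 of the 6 were at 0 in 3 groups.

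Coordinates are those of GRCm38. The activator genes were *Arntl* (chr7:113207465-113314126, + strand), *Clock* (chr5:76209868-76304792, − strand) and *Npas2* (chr1:39193731-39363236, + strand). The repressor genes of the main loop were *Per2* (chr1:91415982-91459324, − strand), *Per3* (chr4:151003652-151044665, − strand), *Cry1* (chr10:85131700-85185064, − strand) and *Cry2* (chr2:92403646-92434043, − strand). The nuclear receptor genes were *Nr1d1* (chr11:98767932-98775333, − strand) and *Nr1d2* (chr14:18204054-18239127, − strand), and the output gene was *Dbp* (chr7:45705088-45710203, + strand). *Nr1d1* shared 263 exon bases (8.55% of its own) with *Thra* on the opposite strand, and *Dbp* shared 539 exon bases (18.0%) with *Sphk2*. The libraries keep the strand, but whether counting used it is not given in the sources used here, so that reads of these shared bases may be uncertain. *Sphk2* lay between 10.4 and 23.7 CPM and *Thra* between 77.5 and 136 CPM over all 8 groups.

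The promoter windows of the genes (RefSeq, GRCm38.p6, from 250 bases before to 50 bases after each annotated start) were searched on both strands for the elements named above. There were 12 such windows for 9 of the 10 genes, all but *Per2*. The 4 sequences below are the stretches that hold these elements in *Per3*, *Cry1*, *Nr1d1* and *Arntl*, genes on which the results turn. Capitals mark TTATGTAA (a D-box) in *Per3*, CACGTG (an E-box) and AACGTG (the reverse complement of the E-prime box CACGTT) in *Cry1*, AACGTG in *Nr1d1* and TAGGTCA (the core of an ROR element) in *Arntl*. Each is printed 5′ to 3′ on the strand of its gene. The first 3 end just before the annotated start, and the *Arntl* stretch lies just after it.
Per3 (chr4:151044666-151044915, − strand): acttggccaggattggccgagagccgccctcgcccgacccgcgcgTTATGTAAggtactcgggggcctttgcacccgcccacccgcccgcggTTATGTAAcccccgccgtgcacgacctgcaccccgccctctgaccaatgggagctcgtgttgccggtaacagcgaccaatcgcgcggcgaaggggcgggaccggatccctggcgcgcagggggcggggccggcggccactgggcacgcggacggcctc
Cry1 (chr10:85185055-85185304, − strand): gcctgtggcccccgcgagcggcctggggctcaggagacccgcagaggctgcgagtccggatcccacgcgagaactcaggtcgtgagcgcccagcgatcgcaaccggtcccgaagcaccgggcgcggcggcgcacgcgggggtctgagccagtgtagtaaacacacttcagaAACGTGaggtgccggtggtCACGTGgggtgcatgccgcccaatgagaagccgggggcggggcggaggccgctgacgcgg
Nr1d1 (chr11:98775378-98775627, − strand): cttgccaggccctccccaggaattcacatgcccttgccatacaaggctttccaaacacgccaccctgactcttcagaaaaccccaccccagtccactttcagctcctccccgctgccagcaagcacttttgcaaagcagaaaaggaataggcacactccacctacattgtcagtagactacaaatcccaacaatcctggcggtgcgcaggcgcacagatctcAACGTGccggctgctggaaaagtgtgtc
Arntl (chr7:113207529-113207558, + strand): gaaggcagaaagTAGGTCAgggacggaggt
The E-box CACGTG was in 1 of the 12 windows (*Cry1*), against 7.15% of 32851 windows of the same length over all genes. CACGTT was in 3 (*Cry1*, *Cry2* and *Nr1d1*), against 4.68%. The D-boxes TTATGTAA and TTACGTAA were in 1 (*Per3*, at 205 and 158 bases before the start), against 1.06%. The ROR cores TAGGTCA and TGGGTCA were in 1 (*Arntl*), against 6.45%, and the CRE TGACGTCA, a cAMP response element, was in 0, against 1.79%. A match describes these letters only, and elements outside the windows were not searched.

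The levels of several of the 10 genes differed between ages. In the plot of CPM by library, *Per3*, *Nr1d1*, *Nr1d2* and *Dbp* had their lowest means at P1 in both genotypes, and *Arntl* and *Npas2* at P35.

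**Figure D1:**
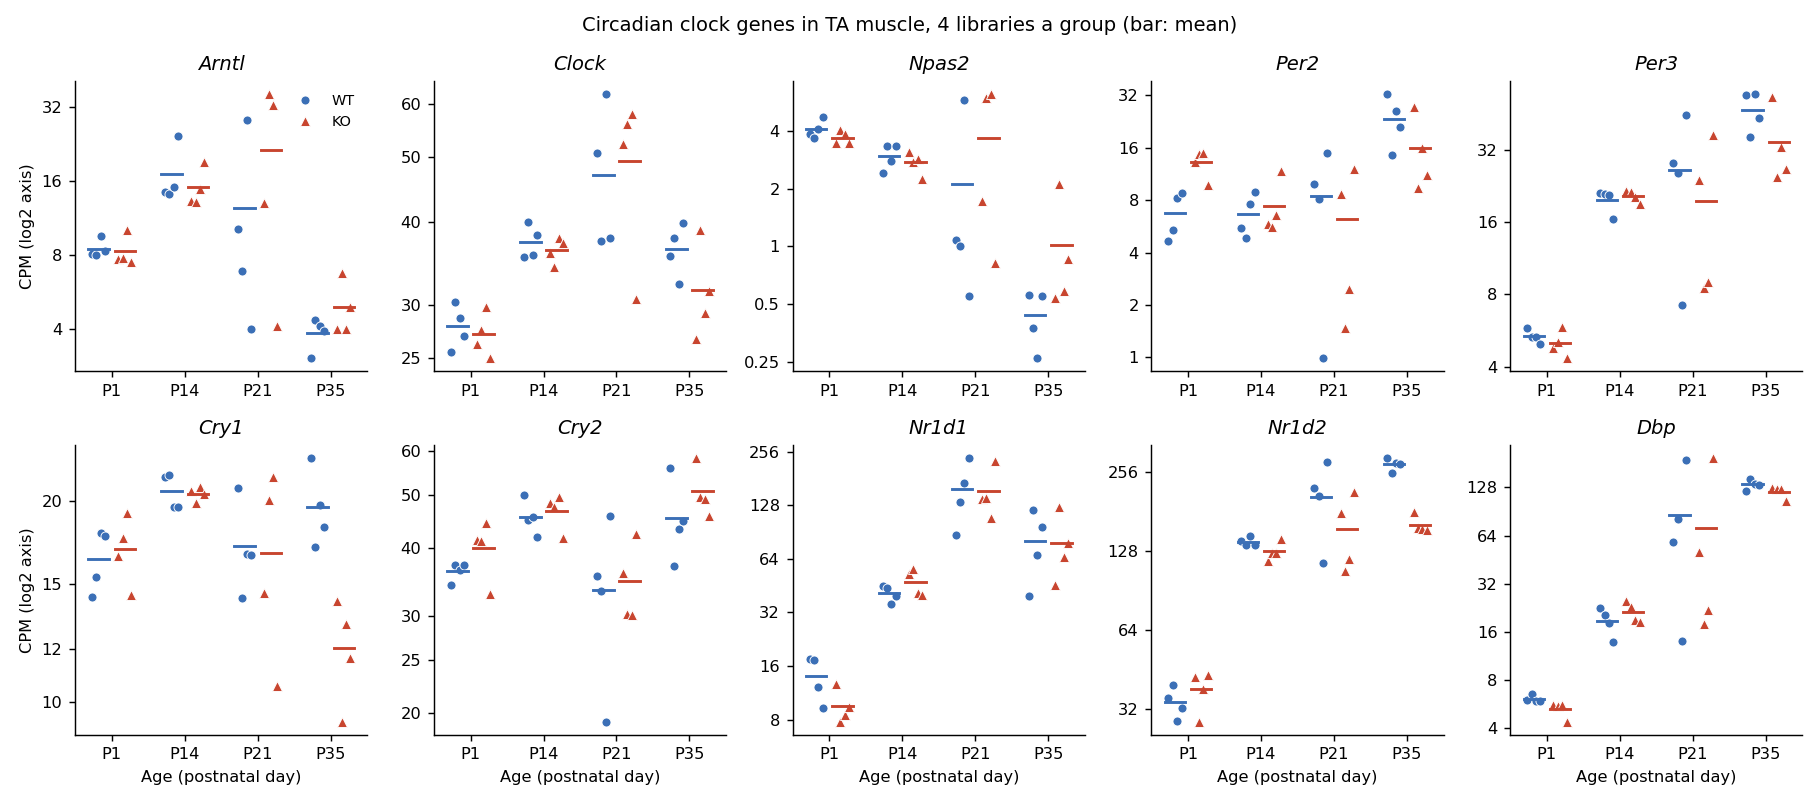
CPM of each of the 10 clock genes (vertical log2 axis) in each library at P1, P14, P21 and P35 (horizontal axis), with WT as blue circles, KO as red triangles and bars at the mean of 4 libraries. *Dbp* in WT went from 5.97–6.57 CPM at P1 to 122–145 CPM at P35, the P21 libraries of *Dbp*, *Arntl*, *Npas2*, *Per2* and *Per3* spread widely in both genotypes, and the P35 groups of *Cry1* and *Nr1d2* did not overlap.

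Per length, the order of the genes changed with age. In WT at P1 the means per kb of exon were 6.30 CPM for *Nr1d2*, 5.74 for *Cry2*, 4.89 for *Cry1* and 4.57 for *Nr1d1*, followed by *Dbp* at 2.05, *Clock* at 2.03, *Per2* at 1.16, *Arntl* at 1.13, *Npas2* at 0.855 and *Per3* at 0.557. In WT at P35 they were 50.5 CPM per kb for *Nr1d2*, 44.7 for *Dbp*, 26.2 for *Nr1d1*, 7.17 for *Cry2*, 5.85 for *Cry1*, 4.89 for *Per3*, 4.01 for *Per2*, 2.65 for *Clock*, 0.513 for *Arntl* and 0.0913 for *Npas2*. Thus the nuclear receptors stood above the activators at both P1 and P35. *Dbp* stood above them at P35, whereas at P1 *Dbp* and *Clock*, or *Per2* and *Arntl*, lay side by side. No test was made between genes.

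From P1 to P14, 5 of the 10 genes rose in WT muscle, namely *Arntl*, *Per3*, *Nr1d1*, *Nr1d2* and *Dbp*. Calls were made at an adjusted p under 0.01 and a fold change over 1.5 in either direction (edgeR quasi-likelihood test, Benjamini-Hochberg adjustment over all genes tested). The background was high, since 55.1% of all 17435 genes tested were called in this step, 24.7% as higher. *Nr1d2* stood at 35.4, 39.5, 28.9 and 32.4 CPM in the 4 WT libraries at P1 and 139.9, 134, 146 and 134 CPM at P14. Its log2FC was 2.02 (SE 0.0945, adjusted p = 1.23e-07). *Per3* stood at 5.81, 5.32, 5.3 and 4.97 CPM at P1 and 21.2, 21, 20.7 and 16.5 CPM at P14. The P14 libraries of both genes were all above the P1 libraries, and the log2FC of *Per3* was 1.88 (SE 0.0965, adjusted p = 1.96e-07). *Dbp* stood at 6.05, 6.57, 5.97 and 5.97 CPM at P1 and 22.7, 20.5, 18.3 and 13.8 CPM at P14, a log2FC of 1.61 (SE 0.138, adjusted p = 3.88e-06). *Nr1d1* stood at 17.5, 17.3, 12.1 and 9.24 CPM at P1 and 44.8, 44.1, 35.7 and 39.6 CPM at P14, a log2FC of 1.54 (SE 0.194). *Arntl*, the activator, stood at 8.07, 7.99, 9.5 and 8.31 CPM at P1 and 14.4, 14.1, 15.2 and 24.4 CPM at P14, with 1 P14 library well above the other 3. Its log2FC was 0.99 (SE 0.173, adjusted p = 4.58e-04).

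The other 5 genes stayed under the fold threshold in WT from P1 to P14. The log2FC values were 0.41 for *Clock*, 0.33 for *Cry1*, 0.32 for *Cry2*, −0.48 for *Npas2* and −0.03 for *Per2* (adjusted p from 3.61e-04 to 0.913). These values depended on how libraries were scaled. With library totals in place of TMM, the all-gene median in this step moved from −0.08 to −0.85. *Arntl* was then no longer called (0.20), *Clock*, *Cry1* and *Cry2* turned negative (−0.36, −0.44 and −0.45, not called), and *Npas2* (−1.25) and *Per2* (−0.83) were called as lower. *Per3*, *Nr1d1*, *Nr1d2* and *Dbp* remained called as higher, at 1.12, 0.78, 1.25 and 0.85. P1 was also the age at which the keratinocyte markers were high and the muscle fiber markers low (18891 to 35988 CPM, against 52935 to 124727 CPM later), and their part in this step was not tested.

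In KO muscle 6 of the 10 genes were called from P1 to P14, against 52.6% of all genes (23.5% as higher and 29.1% as lower). Those that rose were *Nr1d1* (log2FC 2.27, SE 0.175), *Per3* (2.01, SE 0.107), *Dbp* (1.98, SE 0.130), *Nr1d2* (1.72, SE 0.135) and *Arntl* (0.84, SE 0.148), with adjusted p from 7.16e-07 to 5.70e-04. *Arntl* again lost its call with library totals (0.12). The one that fell was *Per2*, with 13.2, 14.8, 14.9 and 9.8 CPM at P1 and 5.84, 5.62, 6.58 and 11.8 CPM at P14. The groups overlapped, since the fourth P14 library was above the lowest P1 library, and the fall of −0.86 (SE 0.242, adjusted p = 0.00923) was lost when any of 6 of the 8 libraries was left out (highest adjusted p 0.0328). *Clock* (0.39), *Cry1* (0.25), *Cry2* (0.20) and *Npas2* (−0.45) were under the fold threshold.

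From P14 to P21 *Nr1d1* was the one clock gene called in either genotype. It stood at 87.4, 134, 169.8 and 236 CPM in WT at P21 and at 139, 141, 109 and 227 CPM in KO at P21. In KO at P14 it had stood at 52.4, 55.8, 40.9 and 40.03 CPM, so that every P21 library was above every P14 library in both genotypes. The log2FC was 1.92 in WT (SE 0.262, adjusted p = 0.0016, against 5.53% of all genes called) and 1.68 in KO (SE 0.217, adjusted p = 0.00129, against 7.04%). *Dbp* had a change as large but a wider error, with a log2FC of 2.18 in WT (SE 0.607, adjusted p = 0.0286) and 1.73 in KO (SE 0.673, adjusted p = 0.0827). The other 8 genes lay between −0.49 and 0.56 in both genotypes. One WT library at P21, replicate 3, decided several of these values. Without it *Npas2* (−1.75), *Nr1d2* (0.77) and *Dbp* (2.55) were called as well, so that 4 of the 10 genes were called in WT. Without KO replicate 4 at P21, *Clock* was also called in KO (0.60, adjusted p = 0.00265). The 3 erythroid markers (*Hbb-bt*, *Hba-a1*, *Alas2*) all rose in the same step in both genotypes. They summed to 115 to 185 CPM at P14, 892 to 1169 CPM at P21 and 43.5 to 140.3 CPM at P35 in WT. In KO these sums were 85.2 to 139, 459.95 to 912 and 57.0 to 118 CPM. From P21 to P35 all 3 fell in both genotypes, and their part in the changes of the clock genes around P21 was not tested.

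From P21 to P35, 0 of 10 genes were called in WT (2.45% of all genes) and 0 of 10 in KO (4.01%) by edgeR, whereas 5 and 6 genes had an unadjusted p under 0.05, and DESeq2 called 1 (*Npas2*) and 2 (*Arntl* and *Clock*). The largest differences were those of the activators *Arntl* and *Npas2*. *Arntl* stood at 3.04, 4.35, 4.11 and 3.92 CPM in WT libraries and at 3.97, 6.76, 4.0 and 4.9 CPM in KO libraries at P35. Its log2FC from P21 was −1.7 in WT (SE 0.531, adjusted p = 0.0542) and −2.11 in KO (SE 0.559, adjusted p = 0.0251). *Npas2* stood at 0.56, 0.374, 0.261 and 0.553 CPM in WT libraries and at 0.534, 2.11, 0.582 and 0.855 CPM in KO libraries at P35, with log2FC values of −2.30 (SE 0.738) and −1.83 (SE 0.667). For both genes replicate 4 of P21 was already at the P35 level in each genotype. For *Npas2* KO replicate 1 of P21, at 1.72 CPM, also lay within the range of the KO libraries at P35. *Nr1d1* had log2FC values of −0.98 in WT and −0.95 in KO. Leaving out KO replicate 4 at P21 brought *Arntl* (−2.45), *Clock* (−0.80), *Cry2* (0.67) and *Dbp* (2.02) past the threshold in KO.

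The P21 libraries stood apart from those of the other ages in how far libraries of 1 group differed. *Dbp* stood at 58.6, 81.1, 14.1 and 191 CPM in the 4 WT libraries (replicates 1 to 4) and at 50.6, 18, 21.9 and 196 CPM in the 4 KO libraries. The highest was 13.5 times the lowest in WT and 10.9 times in KO, whereas at P35 these ratios were 1.18 and 1.2. *Arntl* had the reverse order, at 10.2, 6.88, 28.3 and 3.98 CPM in WT libraries and at 12.9, 36, 32.5 and 4.11 CPM in KO libraries. *Npas2* followed *Arntl*, at 1.08, 1.01, 5.82 and 0.549 CPM in WT libraries and at 1.72, 5.99, 6.24 and 0.823 CPM in KO libraries. In each genotype the library highest in *Dbp*, replicate 4, was the lowest in *Arntl* and *Npas2*.

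*Per2*, a repressor, stood at 9.92, 8.09, 0.99 and 15 CPM in WT libraries and at 8.7, 1.48, 2.48 and 12.2 CPM in KO libraries at P21. *Per3* stood at 28.1, 25.7, 7.2 and 44.8 CPM in WT libraries and at 23.9, 8.53, 8.99 and 36.8 CPM in KO libraries. *Nr1d2* stood at 222, 207, 115 and 280.5 CPM in WT libraries and at 179, 107, 119.5 and 216 CPM in KO libraries. All 3 genes were low in the same libraries as *Dbp*, namely WT replicate 3 and KO replicates 2 and 3, and were highest in replicate 4 of both genotypes. *Nr1d1* was not low in WT replicate 3, where it was the second highest. *Clock*, *Cry1* and *Cry2* varied less, between 30.6 and 62.1, 10.5 and 21.7, and 19.3 and 45.6 CPM at P21. The 8 libraries of P21 had similar totals (49321035 to 55841583 counts). The share of counts from mitochondrially encoded genes was 12% in WT replicate 3 and 9.75% to 10.7% in the other WT libraries, and 8.21% to 8.78% in KO libraries.

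**Figure D2:**
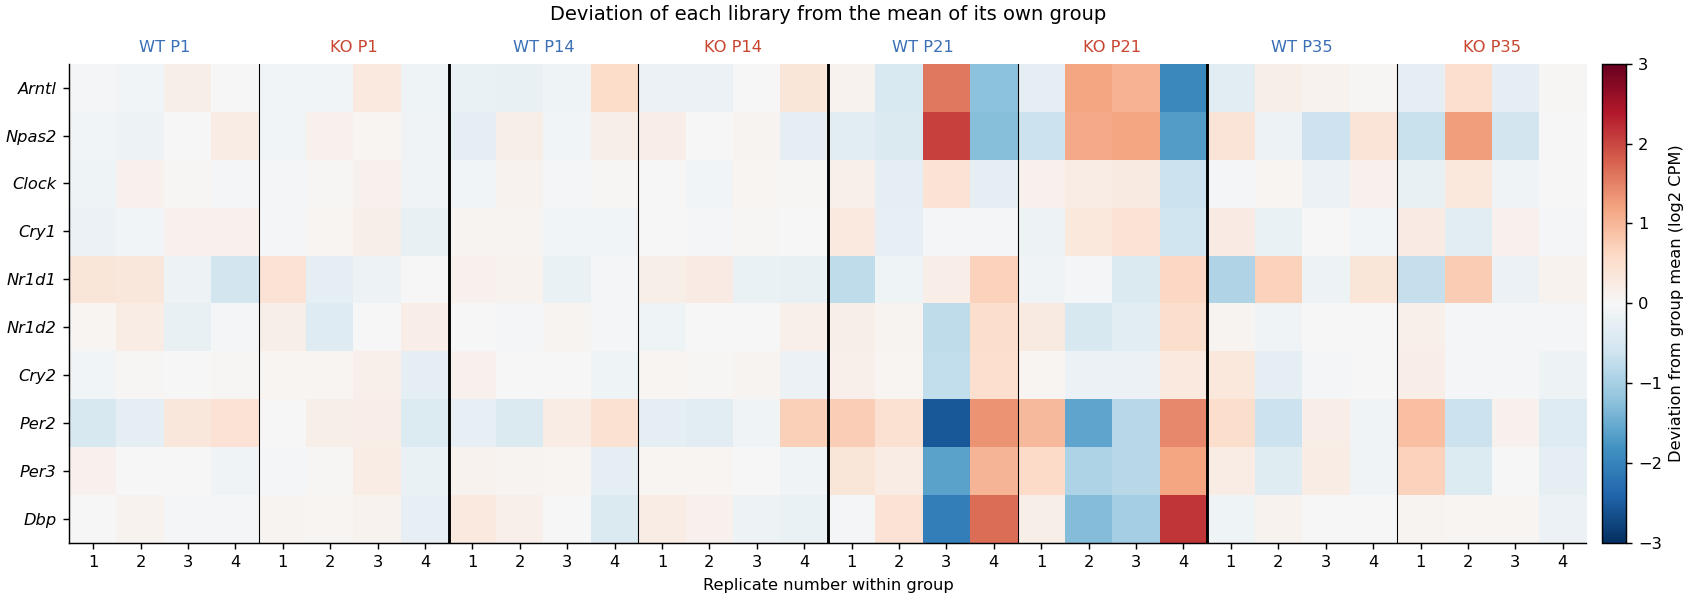
Deviation of each library from the mean of its own group (color, log2 CPM) for the 10 clock genes (rows) in the 32 libraries (columns, grouped by age and genotype, replicates 1 to 4). At P21 WT replicate 3 and KO replicates 2 and 3 were high in *Arntl* and *Npas2* and low in *Per2*, *Per3* and *Dbp*, and replicate 4 of both genotypes had the opposite pattern.

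Over all 32 libraries the pooled standard deviation within groups was 0.90 for *Per2*, 0.80 for *Npas2*, 0.80 for *Dbp*, 0.70 for *Arntl*, 0.59 for *Per3* and 0.47 for *Nr1d1* on the log2 scale, against a median of 0.23 over 18583 genes. For *Nr1d2*, *Cry2*, *Cry1* and *Clock* it was 0.29, 0.24, 0.24 and 0.23. Among the 1000 genes nearest in level, the standard deviation of *Dbp* was at the percentile 99.8 and that of *Cry1*, the lowest of the 10, at 81.5. The 8 libraries of P21 held 96.1% of the squared deviations of *Dbp*, 89.0% of those of *Arntl* and 85.4% of those of *Per3*, but 31.4% of those of *Nr1d1*, for which P35 held 47.6%.

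The deviations from group means were then compared between genes, to ask whether clock genes of opposite or like time of peak moved together between libraries of 1 group. *Arntl* and *Dbp* moved in opposite directions, with Pearson's r = −0.946 (permutation within groups, p = 2.60e-04, adjusted over 3 pairs 4.20e-04) and Spearman's rho = −0.690 (p = 0.00236, adjusted 0.00354) over 32 libraries. Without the 2 libraries farthest from the median, WT replicate 3 and KO replicate 4 of P21, r was −0.815. *Dbp* and *Per3* moved in the same direction, with r = 0.901 (permutation p = 2.80e-04, adjusted 4.20e-04) and rho = 0.664 (p = 0.00116, adjusted 0.00348), and r = 0.722 without the 2 farthest libraries, which were again those 2. *Arntl* and *Nr1d1*, the target and its repressor, had r = −0.194 (permutation p = 0.406) and rho = −0.039 (p = 0.857), and r = −0.097 without those 2 libraries.

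Age by age, both relations held within P21, with 8 libraries. There *Arntl* and *Dbp* had r = −0.993 and rho = −1, the reverse order in all 8 libraries (exact permutation within groups, p = 0.00174, the smallest these permutations can give, adjusted over 12 tests 0.0104). *Dbp* and *Per3* had r = 0.965 at P21 (exact permutation, adjusted p = 0.0208). At P14 r was −0.905 for *Arntl* and *Dbp* and 0.924 for *Dbp* and *Per3*, on a far smaller range. With each library permuted on its own within its group, the adjusted p at P14 was 0.0208 and 0.0104 (exact permutation). Same-numbered WT and KO libraries deviated together at that age, however, and with these kept together the exact permutation p was 0.0833 and 0.0417 (adjusted over 3 pairs 0.125 for both), where 0.0417 is the smallest that 24 orders allow. At P1 and P35 r was 0.298 and 0.248 for *Arntl* and *Dbp*, and 0.640 and 0.084 for *Dbp* and *Per3*. Without the P21 libraries, r over the other 24 was −0.419 for *Arntl* and *Dbp* and 0.344 for *Dbp* and *Per3* (permutation, adjusted p = 0.178 for both), so that the pooled values rest on P21. For *Arntl* and *Nr1d1* r changed sign, to 0.318 (adjusted p = 0.178). At P35 *Arntl* and *Nr1d1* varied in the same direction (r = 0.879, exact permutation p = 0.00868, adjusted 0.0208), whereas at P21 r was −0.531 (adjusted p = 0.375). Same-numbered libraries were kept together only in the P14 test with 24 orders. At P35 *Nr1d1* had the same order of replicate numbers in both genotypes, and *Arntl* the same highest and lowest replicate. The p-values at P21, at P35 and over all 32 libraries take the libraries as independent, and may be too small.

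**Figure D3:**
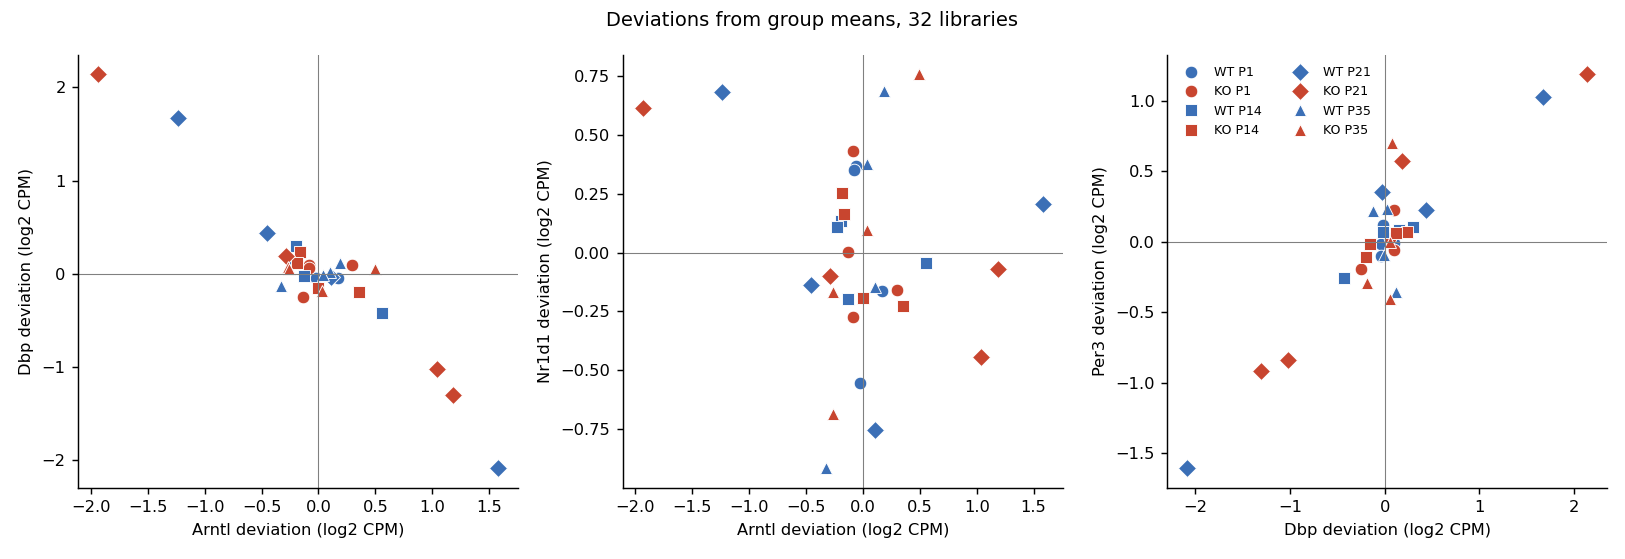
Deviations from group means (log2 CPM on both axes) of *Dbp* against *Arntl*, *Nr1d1* against *Arntl* and *Per3* against *Dbp* in 32 libraries, with WT blue, KO red and 1 symbol per age. The P21 points (diamonds) spread along a falling line for *Dbp* against *Arntl* (r = −0.993 within P21) and along a rising line for *Per3* against *Dbp* (r = 0.965). For *Nr1d1* against *Arntl* r was −0.531 within P21, 0.879 within P35 and −0.194 over all libraries.

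To describe these deviations the genes were grouped by hand, with *Cry1* and *Nr1d1* set apart, and no clustering was run. The ranges within and between sets thus follow in part from the grouping. The 3 activators had r of 0.840 to 0.868 with each other, and *Per2*, *Per3*, *Cry2*, *Nr1d2* and *Dbp* had r of 0.708 to 0.901 with each other. Between these sets r ran from −0.946 to −0.572 over 15 pairs. *Cry1* went with neither set, with r of 0.466 to *Arntl* and −0.702 to *Nr1d1*, and *Nr1d1* had r between −0.213 and 0.325 with the other 8 genes. All these values share the same 32 libraries and the P21 spread.

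Outside the 10 genes, those most like *Arntl* in these deviations were *Pqlc1* (r = 0.835), *Phc2* (0.813), *Ppp1r27* (0.811), *Ypel2* (0.802) and *Rflnb* (0.799). Those most like *Dbp* were *Ciart* (0.889), *Coq10b* (0.851), *Hlf* (0.851), *Gm266* (0.813) and *Cys1* (0.806). Of these, *Ciart* (a repressor of the clock) and *Hlf* (a relative of *Dbp* that binds D-boxes) are on the list of 15 other clock genes. From the same list *Tef*, the other relative of *Dbp*, had r of 0.715 to *Dbp* and −0.713 to *Arntl*. *Nfil3*, which competes with these factors at D-boxes, had r of −0.577 to *Dbp* and 0.504 to *Arntl*. *Per1* was less tied to either gene, with 0.306 and −0.297. *Ciart* itself lay between 0.0725 and 4.03 CPM at P21 in WT and between 0.333 and 3.18 CPM in KO.

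Comparison of KO with WT muscle at P1 called 0 of the 10 clock genes in edgeR, as against 0.0442% of 18100 genes tested, all higher in KO. 2 of the 10 had an unadjusted p under 0.05, and DESeq2 called 1. That gene was *Per2*, at 4.68, 5.37, 8.26 and 8.77 CPM in WT libraries and at 13.2, 14.8, 14.9 and 9.8 CPM in KO libraries. The KO libraries were all above the WT libraries, with log2FC 0.98 (SE 0.219, adjusted p = 0.136 in edgeR and 0.00243 in DESeq2). *Dbp* was the other gene whose groups did not overlap (2 of 10, against 8.62% of all genes), with a log2FC of −0.20 (SE 0.098, adjusted p = 0.501). *Nr1d1* stood at 12.7, 7.79, 8.44 and 9.45 CPM in KO, a log2FC of −0.53 (SE 0.227, adjusted p = 0.438) with overlapping groups. The other 7 genes lay between −0.14 and 0.18.

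*Per1*, the paralog of *Per2* and not among the 10 genes, was called at P1, the 1 of 15 other clock genes to be so. It lay between 29.8 and 34.1 CPM in WT and between 63.9 and 86.3 CPM in KO, a log2FC of 1.23 (SE 0.105, adjusted p = 0.00394). *Per1* is also one of 9 glucocorticoid responsive genes, of which 4 rose in KO at P1. The other 3 were *Fkbp5* (1.57, SE 0.141), a regulator of the glucocorticoid receptor, *Zbtb16* (1.77, SE 0.119) and *Klf9* (0.89, SE 0.0752), both transcription factors. All 9 of that list were positive, with a median of 0.96 against 0.01 over all genes, as were all 9 clock output genes (median 0.14, 0 called) and 12 of the 15 other clock genes (median 0.22). The lists were chosen with earlier results of these data known, so that these counts are a description only and no independent finding. The 10 clock genes had a median of −0.02. The 4 glucocorticoid responsive calls were fragile. All were lost with all 32 libraries in 1 fit, and *Per1*, *Fkbp5* and *Klf9* with the replicate block. Leaving out 1 library lost the call of *Per1* in 5 of 8 fits, of *Fkbp5* in 6, of *Klf9* in 5 and of *Zbtb16* in 3, with adjusted p up to 0.0295 and log2FC values between 0.82 and 1.85.

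At P14, 0 of 10 clock genes were called (0.0318% of 15728 genes) and 0 had an unadjusted p under 0.05, and DESeq2 also called 0. With same-numbered libraries paired by a replicate block, 98 of all genes were called, against 5 without it, and again 0 clock genes. Without the block, the log2FC values ran from −0.18 (*Arntl*, SE 0.197) to 0.20 (*Nr1d1*, SE 0.128), with adjusted p from 0.812 to 0.991. The groups of all 10 genes overlapped (4.84% of all genes did not). The precision differed between genes at this age. *Clock* and *Cry1* had standard errors of 0.0601 and 0.0597, and *Per2* of 0.276. *Nr1d2* stood at 117, 126, 126 and 142 CPM in KO, a log2FC of −0.12 (SE 0.0674). None of the genes of the lists of other clock genes (14 tested), clock output genes or glucocorticoid responsive genes was called.

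At P21, 0 of 10 clock genes were called, whereas 4.67% of 15179 genes were, and again 0 had an unadjusted p under 0.05 and DESeq2 called 0. The groups of all 10 genes overlapped, against 24.7% of all genes whose groups did not. The differences were 0.80 for *Arntl* (SE 0.709) and 0.81 for *Npas2* (SE 0.803), −0.45 for *Per2* (SE 0.753), −0.42 for *Per3* (SE 0.567), −0.40 for *Nr1d2* (SE 0.277) and −0.25 for *Dbp* (SE 0.849). The wide errors go with the spread between libraries described above, in which 2 KO libraries and 1 WT library were high in *Arntl* and low in *Dbp*. *Clock*, *Cry1*, *Cry2* and *Nr1d1* lay between −0.02 and 0.08, with SE from 0.213 to 0.301. Differences of the size seen in *Arntl*, *Npas2*, *Per2*, *Per3* and *Dbp* were thus not detectable for these genes at this age. Among the other lists *Ppargc1a*, a coactivator of mitochondrial genes and clock output gene, fell by 0.73 on the log2 scale (SE 0.0843, adjusted p = 8.15e-04) but was under the fold threshold with library totals (−0.54), and *Mt2*, a metallothionein, rose by 3.26 (SE 0.268, adjusted p = 1.62e-04), while 0 of 14 other clock genes were called.

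At P35, 2 of the 10 clock genes fell in KO muscle, *Nr1d2* and *Cry1*. The background was 16% of 15595 genes called in either direction and 7.52% called as lower. *Nr1d2* stood at 289.6, 254, 276 and 273 CPM in WT libraries and at 179.6, 157, 156 and 153 CPM in KO libraries. The lowest WT library was far above the highest KO library, and the spread within each group was small. The log2FC was −0.74 (SE 0.0806, adjusted p = 2.13e-04), or 1.66-fold lower, and it stayed between −0.79 and −0.71 and called when any 1 of the 8 libraries was left out. *Cry1* stood at 23.2, 17, 19.7 and 18.3 CPM in WT libraries and at 14.2, 9.34, 13 and 11.6 CPM in KO libraries. These groups did not overlap either, and the log2FC was −0.67 (SE 0.143, adjusted p = 0.00486), or 1.6-fold lower. It kept its direction (−0.76 to −0.58) but lost the call in 5 of 8 fits with 1 library left out (highest adjusted p 0.0132). *Nr1d2* and *Cry1* were the only 2 of the 10 genes without overlap, against 39.6% of all genes.

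The other 8 genes were not called at P35. *Npas2* had the largest difference, 1.25 (SE 0.483, adjusted p = 0.0631), and KO replicate 2 alone was at 2.11 CPM while the other KO libraries were at 0.534 to 0.855 CPM. *Per2* stood at 32.5, 14.5, 26 and 21 CPM in WT libraries and at 27.4, 9.37, 16 and 11.2 CPM in KO libraries, with a difference of −0.53 (SE 0.344, adjusted p = 0.242). The *Per2* libraries had the same order by replicate number in both genotypes, and *Per2* was called as lower with a replicate block. *Per3* stood at 53.8, 36.2, 54.5 and 43.4 CPM in WT libraries and at 53.3, 24.7, 32.8 and 26.7 CPM in KO libraries, with −0.43 (SE 0.239, adjusted p = 0.18). For *Per3* KO replicate 1 was among the WT libraries and the other 3 KO libraries were below all of them, and without that library −0.72 was called (adjusted p = 0.00972). *Dbp* stood at 122, 145, 135 and 133 CPM in WT libraries and at 127, 125, 125 and 106 CPM in KO libraries, with −0.12 (SE 0.0845, adjusted p = 0.268). *Nr1d1*, the relative of *Nr1d2*, stood at 39.5, 119.9, 67.2 and 96.5 CPM in WT libraries and at 45.7, 124, 65.5 and 78.7 CPM in KO libraries. Its libraries covered the same range in both genotypes, in the same order by replicate number, and the difference was −0.01 (SE 0.361, adjusted p = 0.981). *Arntl* (0.37, SE 0.198), *Cry2* (0.19, SE 0.128) and *Clock* (−0.18, SE 0.120) completed the set.

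The P35 calls depended on the scaling of libraries. With library totals the median of all genes moved from 0.04 to 0.44, and the share of calls that were higher in KO moved from 53.0% to 93.0%. *Nr1d2* was then at −0.33 (adjusted p = 0.00484, under the fold threshold), *Cry1* at −0.27 (adjusted p = 0.102), and *Cry2* was called as higher (0.59, adjusted p = 0.00278). Several cell type markers also differed at P35. The muscle fiber markers summed to 78333 to 117333 CPM in WT and 52935 to 75030 CPM in KO (1 of 6 called, lower), and mitochondrially encoded genes took 12.4% to 17.9% of counts in WT and 10.3% to 10.5% in KO. The 5 adipocyte markers summed to 218 to 350.0 CPM in WT and 357 to 483 CPM in KO (3 of 5 called, higher), the 5 macrophage markers to 36.1 to 44.6 and 53.7 to 79.6 CPM (3 of 5 called, higher), and the 4 endothelium markers to 293 to 552 and 255 to 322 CPM (2 of 4 called, lower). The 4 Schwann cell markers summed to 86.2 to 543 CPM in WT and 289 to 1167 CPM in KO, with 0 of 4 called, a median log2FC of 1.57 and an unadjusted p under 0.05 for all 4. None of these markers was at 0 in either group. Their part in the differences of *Nr1d2* and *Cry1* was not tested.

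**Figure D4:**
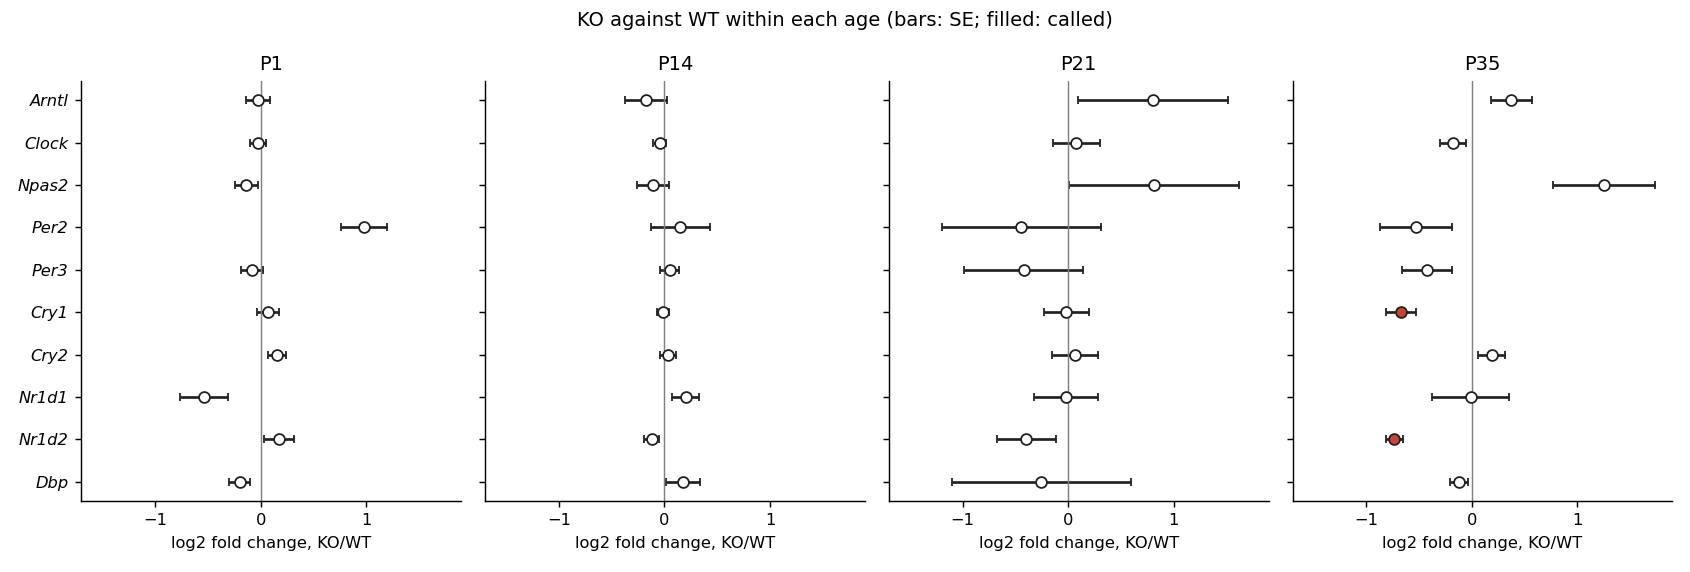
Log2FC (KO/WT, horizontal axis) of the 10 clock genes (rows) at each age, with bars of 1 standard error from the edgeR fit and filled points for genes called at an adjusted p under 0.01 and a fold change over 1.5. The called points are *Cry1* (−0.67) and *Nr1d2* (−0.74) at P35, and the widest bars are those of *Arntl*, *Npas2*, *Per2*, *Per3* and *Dbp* at P21.

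Of 14 other clock genes tested at P35, 2 fell and 0 rose in KO, where 16% of all genes were called and 7.52% as lower, so that the count is near the background. *Hlf*, the relative of *Dbp*, lay between 22.6 and 31.9 CPM in WT and between 9.76 and 19.6 CPM in KO, with a log2FC of −1.04 (SE 0.223, adjusted p = 0.00513). *Bhlhe41*, a repressor that acts at E-boxes, lay between 57.8 and 95.6 CPM in WT and between 42.0 and 55.0 CPM in KO, with −0.75 (SE 0.160, adjusted p = 0.00515). The groups of these genes did not overlap, but both lost their calls with library totals (−0.64 and −0.34) and in 5 and 6 of 8 fits with 1 library left out. The median over the 14 genes was −0.33 and that over the 10 clock genes −0.15, against 0.04 over all genes. *Per1* was at −0.18 (SE 0.317), unlike at P1.

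Of the 9 clock output genes, *Ppargc1a* was called at P35 (−1.15, SE 0.0978, adjusted p = 8.51e-05). Of the 9 glucocorticoid responsive genes, *Sgk1*, a kinase, fell (−1.30, SE 0.280), *Klf9* fell (−0.59, SE 0.130) and *Mt2* rose (3.69, SE 0.670), and 6 did not pass. *Sgk1* and *Klf9* lost their calls with library totals and in 6 of 8 fits each with 1 library left out, whereas *Ppargc1a* and *Mt2* were called in all of these. In the step from P1 to P14 in WT, where 55.1% of all genes were called, 8 of 15 other clock genes rose and 2 fell. Of these 15 genes *Bhlhe41* had the largest rise (3.89, SE 0.151), followed by *Rora* (1.37, SE 0.119) and *Tef* (1.34, SE 0.0816). The same step in KO called 4 as higher and 2 as lower, and at the later steps 0 of these genes were called in either genotype.

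A change of the KO effect with age was tested by interaction terms, fitted over all 32 libraries at once. None of the 10 clock genes passed an adjusted p of 0.01 in any of 3 tests by edgeR or DESeq2, against 0.0161% of 18583 genes between P14 and P1, 0.425% between P21 and P14 and 0.463% between P35 and P21. At an unadjusted p under 0.05 there were 0, 0 and 1. That 1 gene was *Cry1*, whose KO effect at P35 was −0.67 relative to that at P21 (SE 0.222, adjusted p = 0.106). For *Nr1d2* that difference was −0.35 (SE 0.267, adjusted p = 0.527). The calls of *Nr1d2* and *Cry1* at P35 are therefore not shown to differ from the values at P21. These fits share 1 estimate of the spread over all groups, P21 included, also where P1 and P14 are compared. Between P14 and P1 the SE was 0.617 for *Arntl* and 0.741 for *Dbp*. In KO against WT it was 0.112 and 0.098 at P1, and 0.197 and 0.160 at P14. The absence of calls between P14 and P1 thus sets only a loose limit for these genes.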

How the data were processed

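RNA of TA muscle was sequenced in 32 libraries, with n=4 for each of WT and KO at P1, P14, P21 and P35, grouped by the labels. The authors made strand-specific poly(A) libraries, sequenced them in pairs of reads, aligned to GRCm38 and deposited expected counts per gene and library, without scaling or pooling. The submitters' processing notes list STAR 2.6.1 and RSEM 1.2.22, whereas HTSeq is the counter in the methods. The annotation release and the strand setting of the counting are not given in the sources used here. Of the values, 4.26% were not whole, and all were rounded. Of 54838 genes, 54723 had a symbol in GENCODE M21. No column of per-sample values was left unused.

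Comparisons used edgeR 4.0.16 in R 4.3.3 (filterByExpr, TMM, glmQLFit, glmQLFTest, two-sided, Benjamini-Hochberg over all genes tested) on the 8 libraries of each pair of groups, and on all 32 libraries for interactions. A gene was called at an adjusted p under 0.01 and a fold change over 1.5, or at an adjusted p under 0.01 alone for an interaction. Deviations were log2 CPM (prior count 2) minus the group mean. Their correlations were tested by 100000 permutations within groups, or by exact permutation within an age, and 3 pairs of genes were compared. Scripts were tested on simulated data. Tables were made in Python 3.11.15 (pandas 2.3.3, numpy 2.4.6), and figures with matplotlib 3.10.9.

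The text names all 10 clock genes, the called genes of 3 lists (other clock genes, clock output genes, glucocorticoid responsive genes), the 5 genes most like *Arntl* and *Dbp*, and the genes overlapping *Nr1d1* and *Dbp*, of which *Sphk2* was added after its values were seen. One gene of the first list and one cell type marker are not reported here and were left out of the counts and sums. Genes of the lists beyond these were named for their roles. The genes and lists were chosen with earlier results of these data known. Among 48 pairs of libraries of 1 group, none agreed within counting noise (mean chi-square per gene 10.5 to 254). Nothing in the labels says that the replicates are separate animals, so that p-values measure the spread between libraries. Intervals and errors do not cover PCR copies, since no molecular identifiers are stated.

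Replicate numbers are shared between groups. Same-numbered WT and KO libraries deviated together at P14 (r of 0.190 to 0.588 over genes for the 4 numbers), where a replicate block is a paired analysis and changed no call of the 10 genes. In the other comparisons not every pair passed an r of 0.1 and the labels state no pairing, so that the numbers were taken as names only. Alternatives were DESeq2 1.42.0, other scalings, no filter, a replicate block, other sets of libraries and thresholds, and each library left out in turn.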

Additional observations from a re-analysis of the deposited data

Results flagged for a closer look

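Libraries far from the other 3 of their group were sought by Dixon's ratio in each of 80 combinations of gene and group, and 9 were found, where chance gives about 5%. *Arntl* was at 24.4 CPM in WT P14 replicate 4, against 14.1 to 15.2 CPM, and at 10.1 CPM in KO P1 replicate 3, against 7.47 to 7.73 CPM. *Npas2* was at 5.82 CPM in WT P21 replicate 3, against 0.549 to 1.08 CPM. *Per2* was at 11.8 CPM in KO P14 replicate 4, against 5.62 to 6.58 CPM. *Per3* was at 16.5 CPM in WT P14 replicate 4, the library that was high in *Arntl*, against 20.7 to 21.2 CPM. *Nr1d2* was at 179.6 CPM in KO P35 replicate 1, against 153 to 157 CPM, and still below the lowest WT library. *Dbp* was at 6.57 CPM in WT P1 replicate 2, against 5.97 to 6.05 CPM, at 4.41 CPM in KO P1 replicate 4, against 5.49 to 5.64 CPM, and at 105.9 CPM in KO P35 replicate 4, against 124.8 to 126.8 CPM. In WT P14 replicate 4, *Arntl* and *Per3* stood apart in opposite directions.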

How the results depend on the processing

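The number of clock genes called kept within 1.5 times its value under most alternatives, although the genes called could differ. In KO against WT it went from 0 to 1 at P1 with DESeq2, and was 0 at P14 and P21 under every alternative run. At P35 it went from 2 to 1 with library totals, where *Nr1d2* and *Cry1* lost their calls and *Cry2* was called as higher. From P1 to P14 in WT it went from 5 to 9 at an adjusted p under 0.05 with no minimum fold. With library totals it went from 5 to 6 in that step, where *Arntl* was lost and *Npas2* and *Per2* were added as lower. From P14 to P21 it went from 1 to 2 in WT with DESeq2, with all 32 libraries in 1 fit and at an adjusted p under 0.05, and to 2 in KO at that threshold. From P21 to P35 it went from 0 to 1 in WT with DESeq2, and in KO to 2 with DESeq2, 1 with library totals, 2 with all 32 libraries in 1 fit and 4 at an adjusted p under 0.05. The causes were not tested, except that the laxer threshold admits more genes by its construction. Interactions called 0 genes under every alternative.

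Leaving out 1 library gave 1 to 3 genes in KO against WT at P35, 1 to 4 from P14 to P21 in WT, 1 to 2 in KO, 0 to 4 from P21 to P35 in KO, 5 to 6 from P1 to P14 in KO, 5 in WT, and 0 in each other comparison. It moved r to between −0.96 and −0.91 for *Arntl* and *Dbp*, −0.29 and 0.01 for *Arntl* and *Nr1d1*, and 0.84 and 0.93 for *Dbp* and *Per3*. Without the P21 libraries, an alternative added after seeing the data, r was −0.419, 0.318 and 0.344 for these pairs, so that the second changed sign without passing the threshold. With same-numbered P14 libraries permuted together, also added later, the P14 relations of the first and the last pair lost their calls (adjusted p = 0.125 for both). *Dbp* and *Per3* already had the smallest p that 24 orders allow (0.0417, exact permutation). The loss of that call therefore says little about the relation. The replicate block changed the count from 1 to 0 from P14 to P21 in WT (*Nr1d1* 1.84, adjusted p = 0.0140), from 6 to 5 from P1 to P14 in KO, where *Per2* was lost, and from 2 to 3 in KO against WT at P35, where *Per2* was added (−0.59, adjusted p = 0.00905 in edgeR). Over all genes, every number passed an r of 0.1 only at P14, and r of same-numbered libraries averaged −0.14, 0.07 and 0.05 at P1, P21 and P35. At P35, however, *Per2*, *Cry1* and *Nr1d1* each had the same order of replicate numbers in both genotypes. As a hint from the data only, the highest WT and the highest KO library had the same number for 8 of the 10 clock genes at P21 and 6 at P35. At P1 and P14 this held for 3 and 4. The lowest libraries matched for 3 genes at P21 and 5 at P35, and for 1 at P1 and 5 at P14. The number differed between genes, and the genes share these libraries.

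Of 1280 values of single genes with 1 library left out, 1260 kept their side of the threshold, 9 gained and 11 lost a call, and 95 that were not called changed sign. With library totals 19 of 130 values that were not called changed sign. The lowest count of 11 limits *Npas2* at P35 most. Calls of *Hlf*, *Bhlhe41*, *Per1* and the other listed genes were also rerun under these alternatives after seeing the data.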
